A study of Homo sapiens with 6 samples.

Results

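CREM, CITED2, CGA, GEM, DUSP1 and CEBPD are 6 genes known as delayed or feedback targets of cAMP signalling. They were picked by gene symbol from a deposited table of 4101 genes, which held all 6 of them, and the members of the FOS, EGR and NR4A families were kept out of the set. The table came from RNA sequencing of SH-SY5Y, a human neuroblastoma line of neuron-like cells, unmodified (labelled WT). The METH-treatment group was 3 libraries from cells given 2 mM methamphetamine (METH), a psychostimulant that releases monoamines, and the PBS-treatment group was 3 libraries from cells given PBS, each for 24 h. The time given in the sample labels is day 0, while the treatment protocol gives 24 h. Both groups carried no other agent or allele. Column numbers name the libraries, which are PBS 10 to PBS 12 and METH 1 to METH 3. The authors kept in the table only genes that they had marked as differing between these same libraries, and the 6 genes were put together with that difference known. Their METH and PBS values are therefore given as a description, without a test.

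In cAMP signalling, a receptor coupled to a stimulatory G protein switches on adenylyl cyclase, and the cAMP that it makes frees the catalytic subunits of protein kinase A (PKA). PKA phosphorylates CREB, a factor bound to the cAMP response element, a short palindrome near the start of many genes, and phosphorylated CREB recruits the coactivators CREBBP and EP300. Several of the genes switched on in this way damp the signal again, among them CREM, whose internal promoter gives rise to the short repressor ICER, and DUSP1, a phosphatase of MAP kinases.

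To show which of the 6 genes carry this palindrome next to a start, the 250 bases before each start in the RefSeq promoter table (GRCh38.p14) were searched for TGACGTCA, the full element, for its core TGACG on either strand outside a full element, and for TATAAA on the strand of the gene. The table gave 12 starts for 4 of the genes, namely 7 for CREM, 3 for CITED2, 1 for CGA and 1 for DUSP1. GEM and CEBPD were not matched. Stretches of CGA, DUSP1 and CREM that hold full elements or pairs of near-matches are printed 5′ to 3′ on the strand of the gene, with the matches inside them in capitals. Those of CGA and DUSP1 hold TGACGTCA, and those of CREM are from the starts at 35195133 and 35195902, both inside the gene.
CGA, chr6:87095221-87095250, minus strand: atTGACGTCAtggtaaaaatTGACGTCAtg
DUSP1, chr5:172771196-172771375, minus strand: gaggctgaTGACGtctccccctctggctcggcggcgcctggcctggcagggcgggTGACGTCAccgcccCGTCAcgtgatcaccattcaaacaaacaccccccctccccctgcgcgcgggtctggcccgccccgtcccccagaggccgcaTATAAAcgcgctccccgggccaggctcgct
CREM, chr10:35195033-35195122, plus strand: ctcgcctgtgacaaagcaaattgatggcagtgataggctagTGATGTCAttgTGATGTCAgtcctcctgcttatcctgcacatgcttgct
CREM, chr10:35195841-35195870, plus strand: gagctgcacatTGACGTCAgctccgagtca

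CGA had 2 full elements in tandem, whose first bases lay 142 and 124 bases before its start, 1 core 210 bases before it and TATAAA 29 bases before it. DUSP1 had 1 full element 125 bases before its start, 2 further cores and TATAAA 30 bases before it. CREM had no full element at 6 of its 7 starts, and 1 at 50 bases before the start at 35195902. It had 2 cores, 178 and 68 bases before the start at 35127227. A looser pattern, TGANGTCA on either strand, which includes the full element and was chosen after the windows had been read, gave 4 more sites before CREM starts. A pair of these, both TGATGTCA, lay 59 and 48 bases before the start at 35195133. The 3 CITED2 starts had neither the full element, nor the core, nor the looser pattern, nor TATAAA. Of all 35116 RefSeq windows, 1.65% held the full element, 0.0541% held at least 2 of them, 20.1% held a core outside a full element, 6.87% held the looser pattern and 6.80% held TATAAA. Counted by gene, 2.03% of 27305 genes had a full element before some start, against 3 of these 4. Among the 2810 genes of the whole expression table that were matched, the share was 4.09%. The 6 genes were put together as known cAMP targets, and CREM has 7 windows in which to hold a match. Nothing is therefore read from this count. A match gives only that the letters are present, and binding was not measured.

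**Figure D1:**
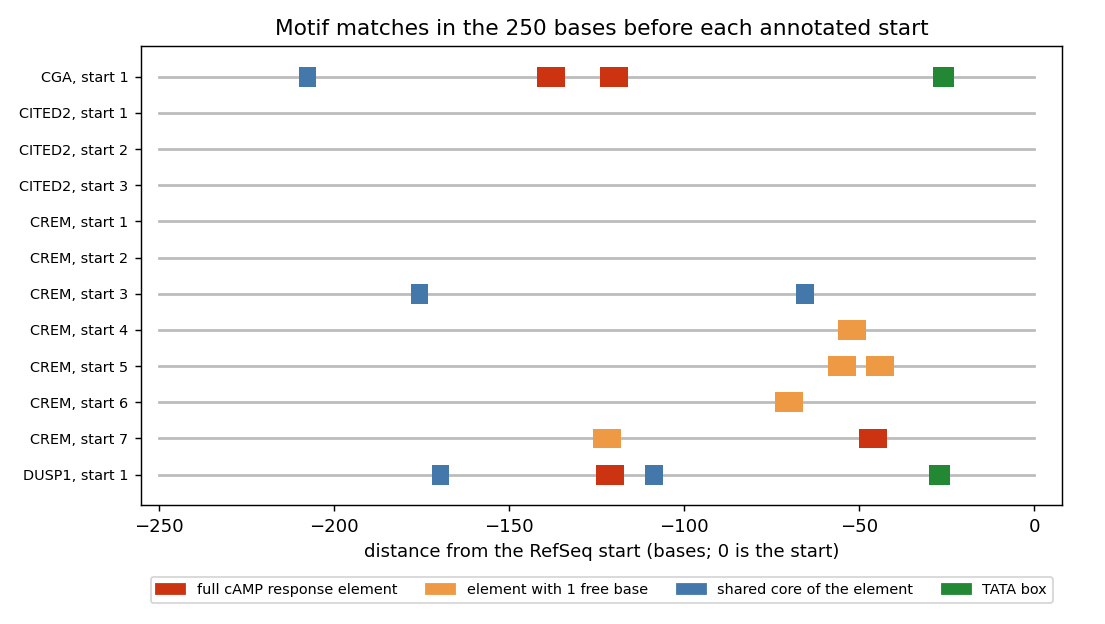
Motif matches (coloured blocks, to scale) in the 250 bases before each RefSeq start (horizontal axis, distance in bases, the start at 0) for the 12 starts of CGA, CITED2, CREM and DUSP1, numbered in the direction of transcription. CGA and DUSP1 hold full elements between 142 and 117 bases before the start and a TATA box near it, CREM has its matches to the looser pattern at starts 4 to 7, and CITED2 has none.

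All 6 genes were higher in the METH-treatment group, and in each of them all METH libraries lay above all PBS libraries. Over the whole table this held for 31.0% of genes, with all METH libraries below all PBS libraries in a further 33.0%, and the choice of the 6 on this difference means that nothing is read from their count. The log2 fold changes, on log2(CPM + 0.1), ranged from 1.58 to 5.48 with a median of 3.40, beside a median of 0.11 over the 4101 genes. CPM is reads per 1e6 reads of the library, without correction for gene length. On this scale CITED2 had the largest log2 fold change of the table, CEBPD was number 6, CGA number 10, GEM number 21, DUSP1 number 37 and CREM number 154. The ranks depend on the 0.1 CPM added. By the ratio of the group means, among genes with any PBS reads, CITED2 was number 2, CGA number 10 and CEBPD number 14. GEM was then number 35, DUSP1 number 57 and CREM number 185. In bulk RNA, more cells that express a gene and more RNA per cell cannot be told apart.

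**Figure D2:**
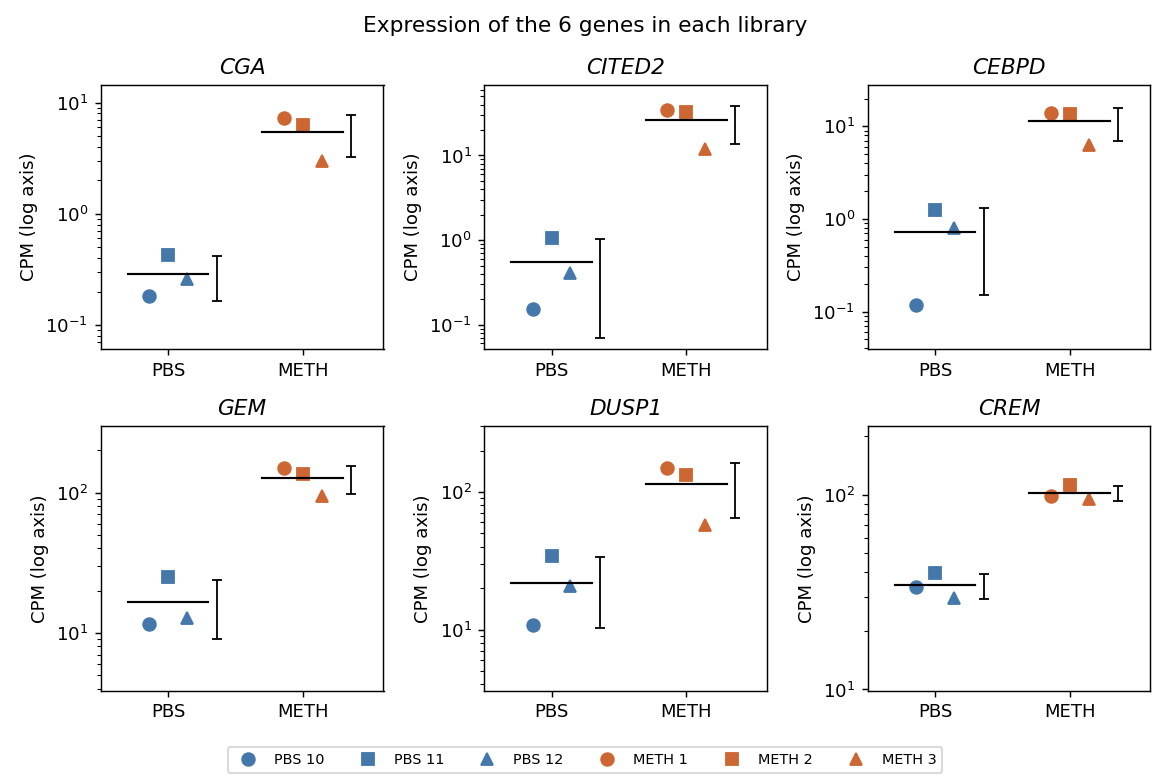
Expression of the 6 genes in CPM (vertical log axes, each with its own range) in 3 PBS libraries (blue) and 3 METH libraries (orange), with the group mean as a horizontal line and ±1 SD beside it. In each gene the METH points lie above the PBS points, METH 3 is the lowest METH library and PBS 11 the highest PBS library.

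CREM (ENSG00000095794, chromosome 10, 35126791 to 35212958, plus strand) encodes a bZIP factor that binds the same element as CREB. It was at 33.5, 39.7 and 29.6 CPM in PBS 10, PBS 11 and PBS 12 and at 98.5, 112.6 and 95.5 CPM in METH 1, METH 2 and METH 3. The libraries of each group were close together, and the lowest METH library was 2.41-fold above the highest PBS library. The PBS mean was 34.2 ± 5.11 CPM and the METH mean 102.2 ± 9.15 CPM (SD, n = 3 each). Their ratio was 2.98, and the log2 fold change was 1.58 (standard error 0.198). CREM had the smallest fold of the 6 genes. GENCODE release 29 lists 48 transcripts of CREM with 41 different starts. The table gives 1 value for the whole gene, so full-length transcripts and those from internal starts, ICER among them, cannot be told apart.

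DUSP1 (ENSG00000120129, chromosome 5, 172768090 to 172771195, minus strand), the MAP kinase phosphatase, was at 10.8, 34.0 and 20.8 CPM in PBS 10, PBS 11 and PBS 12. In METH 1, METH 2 and METH 3 it was at 150.2, 133.9 and 57.9 CPM. Both groups were spread widely, and METH 3 was only 1.70-fold above PBS 11, the smallest such gap of the 6 genes. The PBS mean was 21.8 ± 11.6 CPM and the METH mean 114.0 ± 49.3 CPM (SD, n = 3 each). METH stood 5.22-fold over PBS, with a log2 fold change of 2.41 (standard error 0.458).

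CITED2 (ENSG00000164442, chromosome 6, 139371807 to 139374620, minus strand) encodes a small nuclear protein that binds CREBBP and EP300 and displaces other factors from them. It went from 0.153, 1.07 and 0.408 CPM in PBS 10, PBS 11 and PBS 12, which rest on 17, 93 and 38 reads, to 34.1, 32.8 and 11.9 CPM in METH 1, METH 2 and METH 3. METH 1 and METH 2 were alike and METH 3 was lower (METH 1 was 2.87-fold above it), while PBS 11 was 7-fold above PBS 10. The PBS mean was 0.544 ± 0.474 CPM and the METH mean 26.2 ± 12.5 CPM (SD, n = 3 each). The ratio of the means was 48.2, the log2 fold change 5.48 (standard error 0.581), and the lowest METH library was 11.1-fold above the highest PBS library. Without PBS 11 the ratio of the means was 93.6, and without METH 3 it was 61.4.

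CGA (ENSG00000135346, chromosome 6, 87085498 to 87095406, minus strand) encodes the alpha subunit that chorionic gonadotropin, luteinizing hormone, follicle-stimulating hormone and thyrotropin share. In PBS 10, PBS 11 and PBS 12 it was at 0.181, 0.426 and 0.258 CPM, from 20, 37 and 24 reads. In METH 1, METH 2 and METH 3 it was at 7.21, 6.25 and 2.99 CPM, from 618, 568 and 320 reads. The groups were far apart, with a gap of 7.02-fold between METH 3 and PBS 11. The PBS mean was 0.288 ± 0.125 CPM and the METH mean 5.49 ± 2.21 CPM (SD, n = 3 each). The ratio of the means was 19.0 and the log2 fold change 3.80 (standard error 0.407). The beta subunits that CGA pairs with (CGB genes, LHB, FSHB and TSHB) are outside the table and not analysed here.

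GEM (ENSG00000164949, chromosome 8, 94249253 to 94262350, minus strand) encodes a small GTPase that lowers the current through voltage-gated calcium channels. It was at 11.6, 25.1 and 12.7 CPM in PBS 10, PBS 11 and PBS 12 and at 148.6, 135.0 and 94.6 CPM in METH 1, METH 2 and METH 3. PBS 10 and PBS 12 were alike, PBS 11 stood above them, and METH 3 was 3.76-fold above PBS 11. The PBS mean was 16.5 ± 7.51 CPM and the METH mean 126.0 ± 28.1 CPM (SD, n = 3 each). This is a ratio of 7.65, or 2.99 on the log2 scale (standard error 0.317).

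CEBPD (ENSG00000221869, chromosome 8, 47736909 to 47739086, minus strand) encodes C/EBP delta, a bZIP transcription factor. It was at 0.117, 1.26 and 0.805 CPM in PBS 10, PBS 11 and PBS 12, from 13, 109 and 75 reads. In METH 1, METH 2 and METH 3 it was at 14.03, 13.6 and 6.31 CPM. PBS 11 was 10.7-fold above PBS 10, the widest spread within a group among the 6 genes, and METH 3 was still 5.03-fold above PBS 11. The PBS mean was 0.726 ± 0.573 CPM and the METH mean 11.3 ± 4.35 CPM (SD, n = 3 each). The ratio of the means was 15.6 and the log2 fold change 4.06 (standard error 0.631). Without PBS 10 the log2 fold change was 3.28, and without PBS 11 the ratio of the means was 24.6.

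CGA, CITED2 and CEBPD, the genes with at most 109 reads in each PBS library, had the 3 largest log2 fold changes of the 6. With 1 CPM added in place of 0.1 these were lower, at 2.27 for CGA, 4.05 for CITED2 and 2.82 for CEBPD, and GEM, at 2.92, was then above CEBPD and CGA. With 0.01 CPM added they were 4.19, 5.82 and 4.39. GENCODE places an antisense gene over DUSP1 (AC022217.3), over CITED2 (AL592429.2) and over CREM (AL392046.1), and a pseudogene, a small nuclear RNA gene and a sense-intronic gene within CREM on its own strand. No source used here says that reads were counted by strand, so reads of such pairs cannot be told apart.

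Divided by the exonic length of each gene in GENCODE release 29, the mean METH levels were 56.5 ± 24.4 CPM per kb for DUSP1, 47.6 ± 10.6 for GEM, 17.9 ± 1.61 for CREM, 10.4 ± 4.91 for CITED2, 5.20 ± 2.00 for CEBPD and 2.40 ± 0.969 for CGA (SD, n = 3 each). DUSP1 and GEM overlapped over the METH libraries, as did CITED2 and CEBPD, and CEBPD and CGA. GEM was above CREM, and CREM above CITED2, in all METH libraries without overlap. With PBS the order was DUSP1 at 10.8 ± 5.76 CPM per kb, GEM at 6.22 ± 2.84, CREM at 6.01 ± 0.896, CEBPD at 0.333 ± 0.263, CITED2 at 0.215 ± 0.187 and CGA at 0.126 ± 0.0549. There the single step without overlap was that from CREM to CEBPD, so that GEM and CREM overlapped per length with PBS and not with METH. The lengths join the exons of all transcripts, which lowers the value of a gene with many of them, such as CREM.

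The libraries within a group differed in the same order for most of the 6 genes, and the choice of the genes did not use this order. METH 3 was the lowest METH library in 6 of 6 genes and PBS 11 the highest PBS library in 6 of 6, and PBS 10 was the lowest PBS library in 5 of 6, the exception being CREM. Over the table, METH 3 was lowest in 52.3% of genes and PBS 11 highest in 41.8%, and both held in 29.7%. Both held in 43.6% of the genes past the limma threshold and higher with METH, and in 11 of 11 genes of the FOS, EGR, NR4A and NPAS4 families in the table, a list added after the values were seen. With the libraries scaled to the same median ratio, METH 3 was lowest in 5 of 6 genes and in 41.1% of the table.

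**Figure D3:**
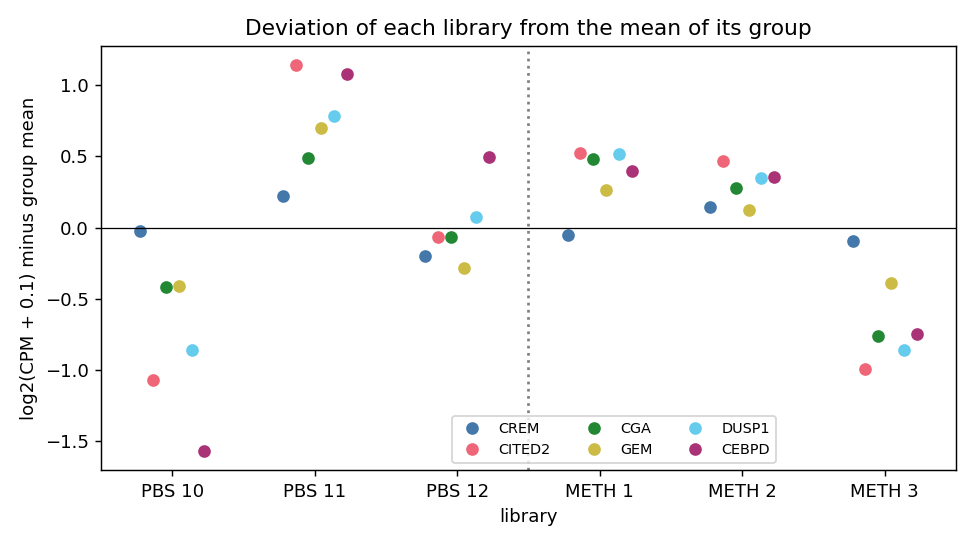
Deviation of each library from the mean of its group, in log2(CPM + 0.1) (vertical axis), for the 6 genes (colours) in the 6 libraries (horizontal axis). The points lie above 0 in PBS 11 and below 0 in PBS 10 and METH 3 for all 6 genes, with CREM nearest to 0 in most libraries.

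Taken as deviations from the group means over the 6 libraries, the 15 pairs of these genes had Pearson correlations from 0.367 (CREM with CEBPD) to 0.991 (CITED2 with DUSP1), with a median of 0.877. The median was 0.0405 over all pairs of genes in the table and 0.242 over pairs of genes past the limma threshold and higher with METH. The points share their libraries, and with 6 libraries and 2 group means removed only 4 deviations are free, so these values describe these libraries. The lowest METH and PBS libraries for these genes, METH 3 and PBS 10, were also the deepest of their groups, at 107.0 M and 110.8 M reads (M, 1e6) against 85.7 M to 93.1 M in the other libraries. In METH 3 the genes of the table took 19.3% of the library, against 23.0% to 24.3% in the others. The part of depth and of this share in the order of the libraries was not tested.

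Outside the 6 genes, and among 3757 genes with a group mean of at least 1 CPM, the log2 profiles over the 6 libraries most like the mean standardised profile of the 6 were those of NR4A1 (Pearson r = 0.998), PTGS1 (r = 0.997) and GOLGA2 (r = 0.997). Of the 3757 genes, 632 had an r over 0.9. Group means were not removed here, so r includes the difference between METH and PBS on which the 6 genes were chosen. It also takes no account of the size of a change. GOLGA2 had a PBS mean of 29.6 CPM and a METH mean of 48.6 CPM. NR4A1 was at 18.2, 50.4 and 29.3 CPM in PBS 10, PBS 11 and PBS 12 and at 644.3, 489.6 and 263.7 CPM in METH 1, METH 2 and METH 3, the same order of libraries as in CITED2. It was also the gene most like CITED2 (r = 0.999). The genes most like CREM, CGA, GEM and DUSP1 were IQCJ-SCHIP1, SYT13, SAT1 and CELF3 in this order, with r from 0.995 to 1.00.

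The following lists, written from general knowledge, place the 6 genes among the rest of the pathway. Their genes were compared between the groups by limma over the whole table, with Benjamini-Hochberg adjustment and a threshold of 0.1 on the adjusted p-value. The authors' selection of the table makes this adjustment lenient. Of its genes, 33.3% were past the threshold and higher with METH while 35.8% were past it and lower. Genes of the lists outside the table were not analysed here.

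Among genes of cAMP production, breakdown and action, 15 of 59 were in the table, of which 9 rose, 1 fell and 5 did not pass the threshold, with a median log2 fold change of 0.62. The largest change was in AKAP5, an anchoring protein of PKA, with means of 1.90 ± 0.732 CPM (PBS) and 6.67 ± 0.959 CPM (METH; SD, n = 3 each). It rose by 1.83 on the log2 scale (limma adjusted p = 0.0103). AKAP13, another anchor, rose by 1.10 on the log2 scale (limma adjusted p = 0.0289). The cAMP-degrading phosphodiesterases PDE3A and PDE10A rose by 1.06 and 1.03 (limma adjusted p = 0.0237 and 0.0388), while PDE4C, of the same superfamily, fell by 1.06 (limma adjusted p = 0.0529). HCN3, of the family of hyperpolarization-activated cyclic nucleotide-gated channels, rose by 0.94 (limma adjusted p = 0.0271). PDE10A was not past the threshold without METH 1, nor HCN3 without METH 2. The number of genes that rose was 5 without METH 1 and 4 without METH 2. The fall of PDE4C was not past the threshold without PBS 11, METH 2 or METH 3.

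Among the factors that bind the element or serve them, 8 of 19 were in the table beside CREM, of which 6 rose, 1 fell and 1 did not pass. CREB1 and ATF1, the closest relatives of CREM, were not among them. CREB5, a bZIP factor, was at 5.93, 9.64 and 5.68 CPM in PBS 10, PBS 11 and PBS 12 and at 46.5, 36.7 and 14.3 CPM in METH 1, METH 2 and METH 3, and rose by 2.06 on the log2 scale (limma adjusted p = 0.0134). METH 3 was again the lowest METH library. SIK2, a kinase that PKA phosphorylates and that holds the CRTC coactivators in the cytoplasm, had a PBS mean of 6.88 ± 0.628 CPM and a METH mean of 22.4 ± 4.50 CPM (SD, n = 3 each), and rose by 1.67 (limma adjusted p = 0.00384). CRTC2, one such coactivator, rose by 0.79 (limma adjusted p = 0.0434), but not past the threshold without METH 1 or METH 2. CREBRF and CREBL2, both related to CREB-type bZIP factors, rose by 0.97 and 0.58 (limma adjusted p = 0.0812 and 0.0676), each lost in 4 of the 6 fits that left out a library. CREB3L4, a factor anchored in the endoplasmic reticulum, fell by 0.60 (limma adjusted p = 0.0870), and was past the threshold in 1 of these 6 fits. The METH and PBS libraries overlapped in CREBRF, in CREB3L4 and in ATF7, the remaining gene that rose. The number that rose was 3 without PBS 12, METH 2 or METH 3, and 2 without METH 1.

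Among other genes known to respond to cAMP or CREB, outside the FOS, EGR and NR4A families, 32 of 76 listed symbols were in the table. The list gives both names of CYR61 (CCN1), CTGF (CCN2) and FAM46A (TENT5A), so it holds fewer genes than symbols. Of the 32, 20 rose, 7 fell and 5 did not pass, with a median log2 fold change of 0.87. PDE10A is counted both here and among the genes of cAMP breakdown. All METH libraries lay above all PBS libraries in 18 of the 32, and below them in 5. Over the whole table these held for 31.0% and 33.0% of genes. The 18 include BDNF and the 5 include HES1, neither of which passed the threshold. RGS2, which shortens G protein signals, was at 38.3, 28.2 and 19.1 CPM in PBS 10, PBS 11 and PBS 12 and at 144.9, 118.5 and 90.9 CPM in METH 1, METH 2 and METH 3 (log2 fold change 2.08, limma adjusted p = 0.00458). RASD1, a small GTPase, rose by 1.81 on the log2 scale, FAM46A by 1.72, BTG2, which slows proliferation, by 1.69, and ATF3, a stress-induced bZIP factor, by 1.69 (limma adjusted p = 0.0189, 0.0125, 0.00710 and 0.0269). The largest fall was in CXCR4, a chemokine receptor, with a PBS mean of 83.5 ± 40.8 CPM and a METH mean of 21.7 ± 6.78 CPM (SD, n = 3 each). It fell by 1.88 on the log2 scale (limma adjusted p = 0.00990). The other genes that fell were SGK1, KLF10, STC1, STC2, INHBA and UCP2. The number that rose was 12 without METH 1 and also 12 without METH 2, and the number that fell was 2 without METH 2 and 4 without PBS 11 or METH 3.

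Among relatives and partner subunits of the 6 genes, 8 of 34 were in the table, 7 phosphatases of the DUSP family and REM2, a GTPase of the GEM family, of which 6 rose, 1 fell and 1 did not pass. DUSP4, another MAP kinase phosphatase, was at 41.3, 97.6 and 52.0 CPM in PBS 10, PBS 11 and PBS 12 and at 316.3, 259.6 and 246.9 CPM in METH 1, METH 2 and METH 3. It rose by 2.20 on the log2 scale (limma adjusted p = 0.00476). DUSP16, DUSP8, DUSP10 and DUSP3 rose by 1.25, 1.09, 0.98 and 0.91 (limma adjusted p = 0.00986, 0.0443, 0.0482 and 0.0232), and REM2 by 1.05 (limma adjusted p = 0.0441). DUSP8, REM2 and DUSP10 were not past the threshold without METH 1 or METH 2, nor DUSP10 without PBS 12. The groups overlapped in DUSP10, with METH 3 at 3.38 CPM and PBS 11 at 3.41 CPM. DUSP7 was the gene that fell. The number that rose was 3 without METH 1 and also 3 without METH 2. No CITED or CEBP relative from the list was in the table.

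**Figure D4:**
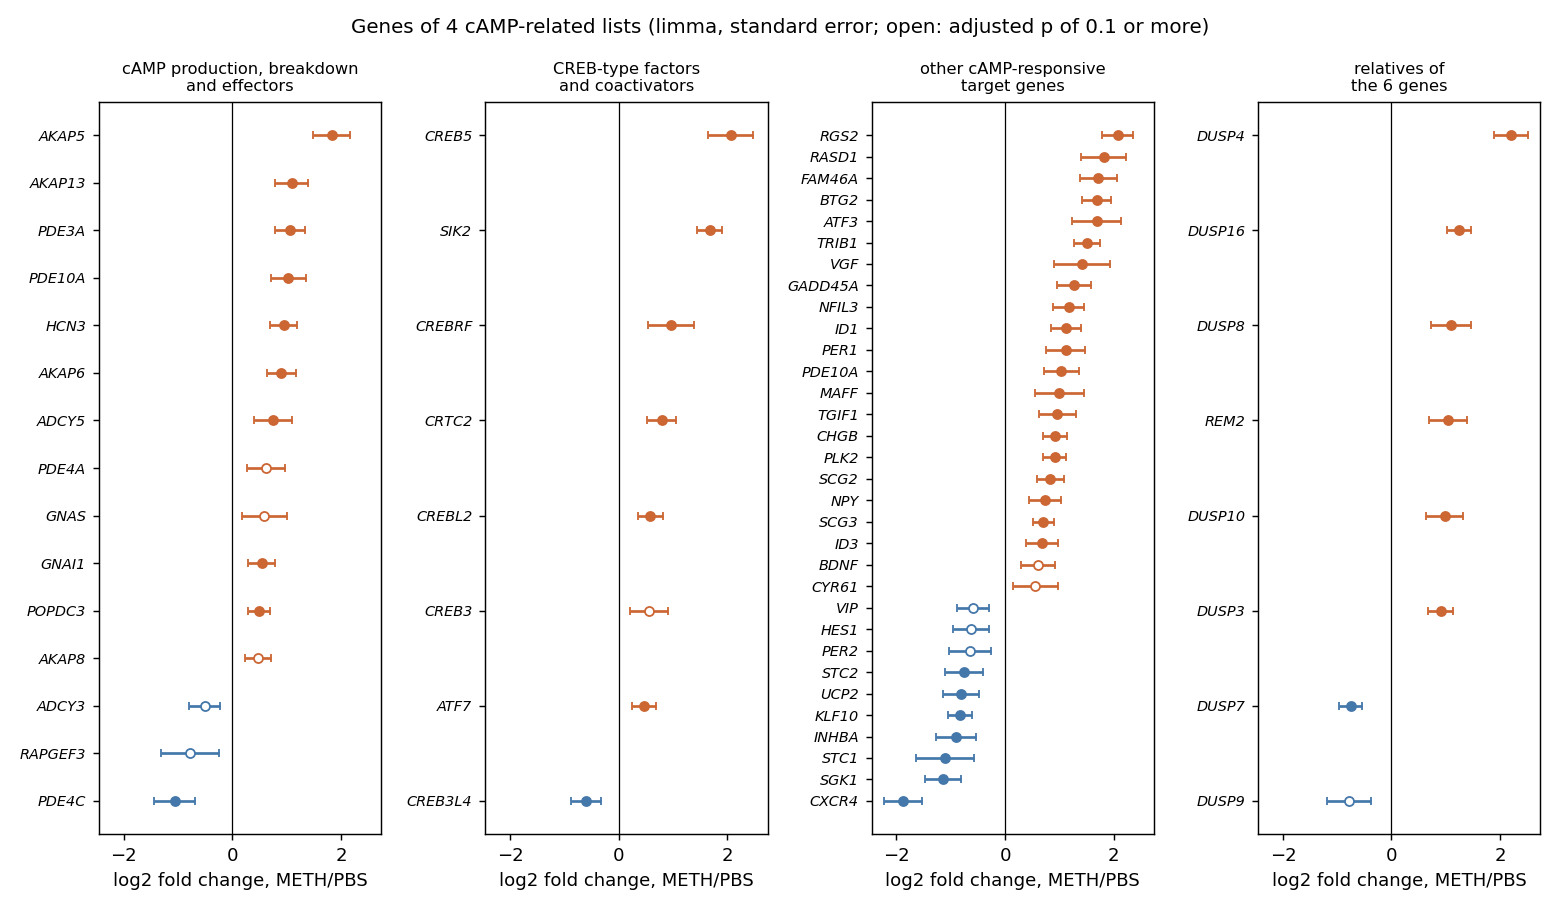
Log2 fold changes of METH over PBS by limma on log2(CPM + 0.1) (horizontal axis, bars are standard errors, 3 libraries per group) for the genes of the lists that are in the table (rows), filled where the adjusted p-value is under 0.1. Most filled points lie to the right of 0, with AKAP5 at 1.83, CREB5 at 2.06, RGS2 at 2.08 and DUSP4 at 2.20 the highest of their panels, and CXCR4 at -1.88 the lowest point.

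Of 20 markers of noradrenergic neuroblastoma cells, 9 were in the table, HAND1 and GATA2 among them, and none of the 9 was at 0 in any library. PHOX2A, TH and DBH are outside the table. The summed level of the 9 was 1163 to 1305 CPM with PBS and 1092 to 1156 CPM with METH. Of these, 7 fell and 1 rose. The gene that rose was CHGB, from a PBS mean of 242.9 ± 23.2 CPM to a METH mean of 459.2 ± 48.1 CPM (SD, n = 3 each). The sum includes CHGB, so it does not show the fall of the 7. CHGB is also counted among the other cAMP-responsive genes that rose. Of 14 markers of mesenchymal cells, a state that this line can also take, 4 were in the table, none at 0, with a summed level of 458 to 746 CPM with PBS and 801 to 1158 CPM with METH, and 3 rose. Their part in the values of the 6 genes was not tested.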

How the data were processed

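RNA of SH-SY5Y cells was sequenced by the authors on the Illumina HiSeq platform, 3 libraries per group, and compared with DESeq2. The aligner, the counting tool and the genome build are not given in the sources used here. The authors deposited 1 value per gene and library under the heading FPKM. Low values in each column were whole multiples of 1 step whatever the gene (100% of those under 4 CPM, within the rounding of the file), so the deposited values are CPM, and the reads behind them were recovered with library totals of 85.7 M to 110.8 M reads (M, 1e6). Further columns hold the authors' group means, fold changes and p-values, and were not used. All 4101 genes are marked significant by the authors. The p-values weigh the difference between the groups against the spread between these libraries. No source says that the libraries came from separate cultures, so the p-values may not extend to new cultures.

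From these values log2(CPM + 0.1) was computed, and limma (version 3.58.1, R 4.3.3) compared the groups with a trended eBayes fit. The p-values of all 4101 genes were adjusted by Benjamini-Hochberg, with a threshold of 0.1. The fits were tested on simulated data before use. Alternatives were other pseudocounts (1 and 0.01), a filter at 1 CPM, no trend, median-ratio scaling, a threshold of 0.05, each library left out, and edgeR (version 4.0.16, quasi-likelihood) and DESeq2 (version 1.42.0) on the recovered reads. On these reads edgeR called 1248 genes higher and 1482 lower. The 6 genes, the lists and the rules were chosen with earlier results of these data known. In each list, up to 6 genes past the threshold with the largest absolute change are described, and a few others are named without values. The 3 genes most like the mean profile of the 6 genes, and the single gene most like each, were taken by Pearson correlation, and the gene most like CEBPD is not reported here. Positions and exonic lengths are from GENCODE release 29 (GRCh38) and promoters from RefSeq (GRCh38.p14).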

Additional observations from a re-analysis of the deposited data

How the results depend on the processing

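No paired analysis was possible because the PBS columns carry the numbers 10 to 12, which are in no label, while the METH columns carry 1 to 3. The log2 fold changes of the 6 genes stayed positive in all 54 alternative values, from other pseudocounts, median-ratio scaling and each library left out. Their sign could not have changed, because the groups did not overlap in any of these genes and the smallest gap was 1.70-fold, in DUSP1. Nothing is therefore read from the sign. Fits without a trend, with edgeR and with DESeq2 are not among the 54. With a pseudocount of 1 the log2 fold changes were 4.05 for CITED2, 2.27 for CGA and 2.82 for CEBPD. With each library left out they ranged from 3.28 (without PBS 10) to 4.60 (without PBS 11) for CEBPD and from 4.95 to 6.05 (without the same libraries) for CITED2. With the looser pattern, which like the scaling applied to the order of the libraries was added after the data were seen, CREM had 5 sites in place of 1 full element.

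Of 112 alternative list counts, 81 stayed within 1.5 times the main count. At a threshold of 0.05 the genes of cAMP production and action that fell went from 1 to 0. The other targets that fell went from 7 to 3. Among the factors that bind the element or serve them, the genes that rose went from 6 to 3. Those of them that fell went from 1 to 0, and also without a trend none of them fell (0 in place of 1). With DESeq2, 2 genes of cAMP production and action and 2 relatives fell in place of 1 each, and with median-ratio scaling 2 relatives fell. That scaling moved the median log2 fold change of the table by -0.03. With each library left out, the genes that rose and fell numbered 4 to 11 and 0 to 2 for cAMP production and action. They numbered 2 to 7 and 0 to 1 for the factors that bind the element or serve them. For other targets they were 12 to 21 and 2 to 6, and for relatives 3 to 6 and 0 to 2. Over the table, the counts went from 1366 higher and 1467 lower to 412 and 563 without METH 2, 491 and 628 without METH 1, 747 and 854 without PBS 12, and 696 and 783 at a threshold of 0.05. The causes were not tested. PBS values of CITED2, CGA and CEBPD rest on 13 to 109 reads per library, which limits the precision of their folds, and counting error is the only error that depth covers.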

Other observations

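TGACGTCA was also counted in the RefSeq windows of 250 bases before the starts of all genes of the table, the 6 genes included. It stood before some start of 4.09% of the 2810 genes of the table that were matched, of 5.45% of the 973 that were past the limma threshold and higher with METH (53 genes), and of 3.26% of the 921 that were past it and lower (30 genes), beside 2.03% of all 27305 genes. A gene with more starts has more windows in which to hold a match. Counted by window, the shares were 2.74% of 4192, 3.53% of 1500, 2.34% of 1284 and 1.65% of 35116, in the same order. No share was tested against another. Among the genes of the cAMP lists in the table, 52 were matched and 3 of them (5.77%) had it, namely DUSP8, MAFF and VGF.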
